A study of Mus musculus with 50 samples.

Results

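Vitronectin (Vtn) and fibronectin (Fn1), 2 adhesive glycoproteins that the liver releases into plasma, were followed across cell classes, subcellular compartments and genotypes in mouse liver sections imaged with the CosMx Spatial Molecular Imager, which counts single transcripts in place on fixed tissue. They are 2 of the 1000 gene targets on the panel. Both genes were chosen by name and from their own counts across cells, nuclear and cytoplasmic compartments and genotypes. Those values are therefore given below as a description with no test. Position in the tissue and the partner genes were not used to choose Vtn and Fn1 and were tested. The lists of partner genes were, however, drawn up with earlier results of these data known, so their tests are not free of that choice. Control livers came from wildtype C57BL/6 mice and HIRA KO livers from HIRA fl/fl C57BL/6 mice, in which the gene for the histone H3.3 chaperone HIRA is removed from hepatocytes. Every mouse of either group had received AAV8 Tbg-Cre, a virus whose Tbg promoter is active in hepatocytes, at 6 months of age, and livers were collected 12 months later, at 18 months. The controls carried no floxed allele, so the floxed allele and its deletion cannot be told apart. The labels give 50 fields of view, which form 6 tissue areas, 3 per group; the area was the replicate throughout, and since no label ties a field to a mouse, errors measure the spread between areas. The slide carried the groups in separate columns, so slide position and genotype cannot be told apart. HIRA itself is not on the panel, so the deletion could not be checked here.

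Vitronectin and fibronectin are made by hepatocytes and circulate in plasma, from which they enter blood clots and the matrix of injured tissue. Both hold the arginine-glycine-aspartate (RGD) site that integrins, the cell surface receptors for matrix, recognise. Vitronectin also holds the plasminogen activator inhibitor and binds the urokinase receptor, and it restrains the terminal complement complex. Fibronectin is in addition made locally by stellate cells and fibroblasts as a spliced cellular form, and it is laid down early in fibrotic matrix. The panel does not separate the spliced forms.

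In the GENCODE vM21 annotation (GRCm38), Vtn lies on the plus strand at chr11:78499091-78502324 and its coding transcript Vtn-201 has 8 exons and 478 codons. Fn1 lies on the minus strand at chr1:71585520-71653200, and its longest coding transcript, Fn1-201, has 46 exons and 2477 codons. The coding sequence around the RGD codons is shown because this site is what the 2 genes share as ligands of the integrins described below; it is printed 5′ to 3′ on the coding strand, with the 3 RGD codons in capitals and 27 bases on either side.
Vtn codons 64 to 66, chr11:78499706-78499714, exon 3: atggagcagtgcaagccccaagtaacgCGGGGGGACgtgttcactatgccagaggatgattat
Fn1 codons 1614 to 1616, chr1:71606746-71606754, exon 30: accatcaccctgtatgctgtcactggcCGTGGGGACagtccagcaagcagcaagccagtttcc
Fn1 codons 2181 to 2183, chr1:71597443-71597451, exon 40: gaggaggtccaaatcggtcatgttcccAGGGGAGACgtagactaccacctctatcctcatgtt
Vtn-201 held 1 such triplet and Fn1-201 held 2, the first of them the site in the cell-binding region. The 63 bases printed for Vtn cross an exon boundary upstream of the triplet, and both Fn1 stretches lie within 1 exon each.

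After removal of cells with fewer than 20 counts or an outlying area, 49665 of 52132 segmented cells were kept, with 718991 to 1542205 gene counts per area and a median of 88 to 147 counts per cell. Over all segmented cells Vtn had 15885 counts and Fn1 6692. The 10 negative probes, which match no mouse transcript and measure unspecific signal, had a mean of 2977 counts each and a highest of 3946. Vtn thus stood 5.34 times and Fn1 2.25 times above the mean negative probe, and the level of the mean negative probe is given beside the values of Fn1 below. Classes were named from fixed marker genes after clustering without Vtn and Fn1, and levels are CPM (counts per 1e6), the gene's share of all gene counts of the summed cells scaled to 1e6. Probe sets differ between genes, so the level of Vtn was not compared with that of Fn1.

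Among the 7 named classes with at least 100 cells in each area, Vtn was highest in hepatocyte-like cells throughout; clusters that could not be named had 2195 CPM. Its mean over the 6 areas was 3049 ± 1016 CPM (SD, n = 6) there, against 1499 ± 219 in cholangiocyte-like cells, 1445 ± 306 in stellate-like cells, 1386 ± 351 in endothelial-like cells, 1253 ± 326 in T/NK-like cells, 1249 ± 455 in Kupffer-like cells and 932 ± 196 in monocyte/dendritic-like cells. Hepatocyte-like cells exceeded the next class in 6 of 6 areas. From cholangiocyte-like to Kupffer-like cells, each class exceeded the next in only 3 or 4 of 6 areas, so neighbours in that order did not differ beyond their spread. T lymphocytes are not known to make vitronectin, so T/NK-like cells serve as the comparison class that should lack it; the mean negative probe stood at 371 CPM there, and the source of the rest of their 1253 CPM was not tested. Stellate-like and cholangiocyte-like cells were above the T/NK-like level in 5 of 6 areas and Kupffer-like cells in 3. Hepatocyte-like cells made up 19.5% to 41.8% of the cells of an area. They held 24.7% to 51.4% of the area's gene counts and 35.8% to 71.5% of its Vtn counts.

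Among the 7 named classes of sufficient size, Fn1 was also highest in hepatocyte-like cells, with stellate-like cells next; clusters that could not be named had 1123 CPM. The 6-area means were 1224 ± 217 CPM (SD, n = 6) in hepatocyte-like cells, 990.5 ± 131 in stellate-like cells and 881 ± 128 in cholangiocyte-like cells, followed by T/NK-like cells at 708 ± 187, Kupffer-like cells at 622 ± 106, endothelial-like cells at 509 ± 81.3 and monocyte/dendritic-like cells at 479 ± 150.1. Hepatocyte-like cells were above stellate-like cells in 5 of 6 areas, and stellate-like above cholangiocyte-like cells in 4 of 6. The mean negative probe stood at 470.2 CPM in hepatocyte-like, 364 in stellate-like, 313 in cholangiocyte-like and 375 in endothelial-like cells. Fn1 was therefore 2.60 times the mean negative probe in hepatocyte-like, 2.72 times in stellate-like, 2.81 times in cholangiocyte-like and 1.36 times in endothelial-like cells. As a ratio to the unspecific signal the order of the highest 3 classes thus turned round, whereas with that signal subtracted it stayed, at 754, 626 and 567 CPM. Stellate-like cells, known producers of cellular fibronectin, exceeded the T/NK-like level in 5 of 6 areas, and endothelial-like cells in 0 of 6.

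**Figure D1:**
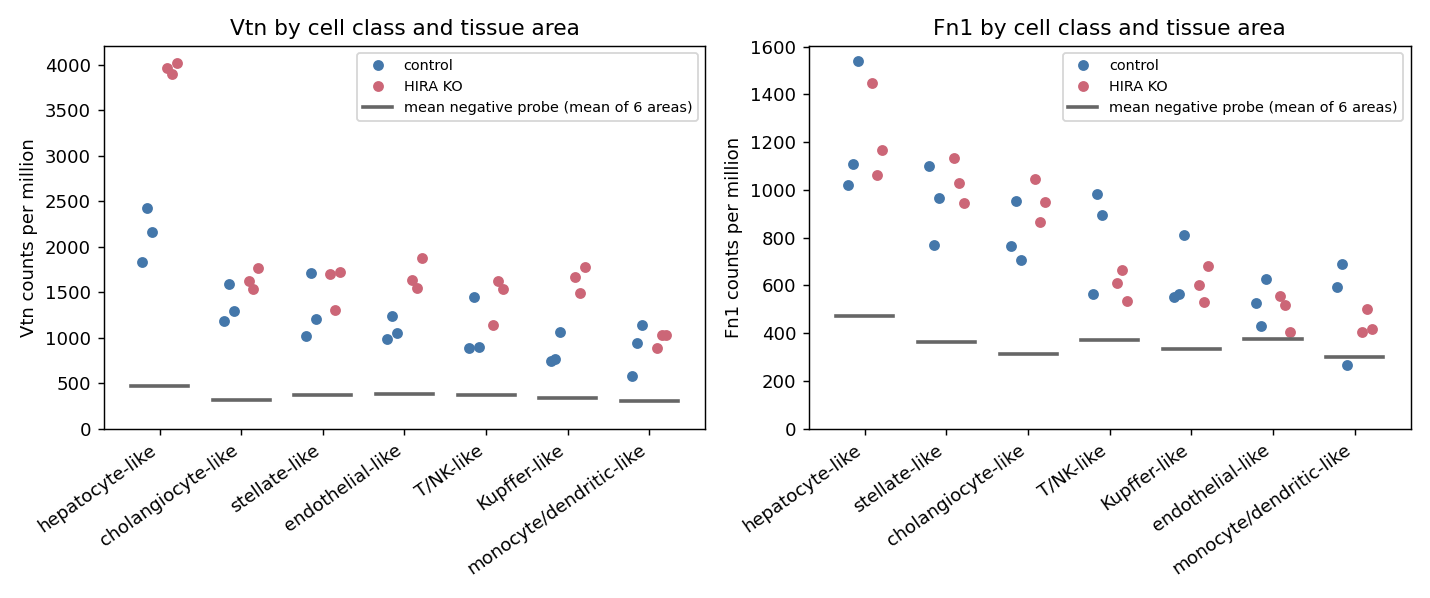
Level (CPM) of Vtn (left) and Fn1 (right) in 7 cell classes, ordered by mean; each point is 1 of 6 tissue areas (blue control, red HIRA KO) and the grey line is the mean negative probe in that class. Vtn in hepatocyte-like cells lies at 1835 to 2421 in control and 3898 to 4020 in HIRA KO areas, while the Fn1 points of both groups intermingle in that class.

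The count of Fn1 per count of Vtn was used to compare classes within an area, since probe efficiency cancels between classes. Unspecific signal does not cancel. In hepatocyte-like cells it was 0.555, 0.458 and 0.713 in the control areas and 0.366, 0.273 and 0.290 in the HIRA KO areas. In stellate-like cells it was 1.08, 0.448 and 0.802 in control areas and 0.665, 0.786 and 0.552 in HIRA KO areas. The quotient of stellate-like over hepatocyte-like cells was 1.77 ± 0.682 (SD, n = 6) and exceeded 1 in 5 of 6 areas, the exception being control area 2 at 0.979. The stellate-like ratio therefore leaned towards Fn1 in all areas but 1. T/NK-like cells, the comparison class, leaned the same way in every area. Their ratio was 0.636, 0.68 and 1 in control and 0.536, 0.408 and 0.35 in HIRA KO areas. The lean is thus not particular to stellate-like cells. In cholangiocyte-like cells the ratio was nearly constant, from 0.537 to 0.646 over the 6 areas. In Kupffer-like cells it was 0.740 to 0.759 in control and 0.354 to 0.383 in HIRA KO areas, which followed from Vtn: Kupffer-like Vtn was 737, 762 and 1067 CPM in control and 1661, 1495 and 1772 CPM in HIRA KO areas, with 50 to 326 counts behind each value and the groups apart, as they were for 10.4% of genes in this class, while Fn1 was 550.0 to 810.1 and 529 to 679 CPM.

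Between genotypes, Vtn was higher in HIRA KO livers and Fn1 was not. Summed over all cells, Vtn stood at 1266, 2021 and 1579 CPM in control areas 1 to 3 and at 2379, 2659 and 2888 CPM in HIRA KO areas 1 to 3. All 3 HIRA KO areas were above all 3 control areas. The fit across all genes (edgeR) gave a log2 difference of 0.83 ± 0.20 (SE), a 1.78-fold level, and 5 of 998 genes had a larger one. Fn1 stood at 830.5, 968 and 1140 CPM in control and 973, 939 and 928 CPM in HIRA KO areas, with the HIRA KO areas inside the control range and a log2 difference of 0.06 ± 0.13. The groups did not overlap for 19.2% of all genes, so for Vtn the absence of overlap is a description only. Hepatocyte-like cells made up 19.5%, 39.1% and 29.9% of the cells in control areas 1 to 3 and 23.3%, 34.2% and 41.8% in HIRA KO areas 1 to 3, overlapping ranges. Clusters that could not be named held a further 7.92% to 30.1% of the cells of an area and 5.79% to 32.3% of its Vtn counts.

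Within areas Vtn varied from field to field. Single fields ranged from 898 to 2671 CPM with a median of 1543 in the 25 control fields, and from 1339 to 4050 CPM with a median of 2676 in the 25 HIRA KO fields. Of the HIRA KO fields, 24 lay above the control median and 13 above the highest control field. For Fn1, 12 of 25 HIRA KO fields lay above the control median, and the fields ranged from 666 to 1349 CPM in control and from 440 to 1412 CPM in HIRA KO areas. Fields of 1 area share a section and are no replicates.

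**Figure D2:**
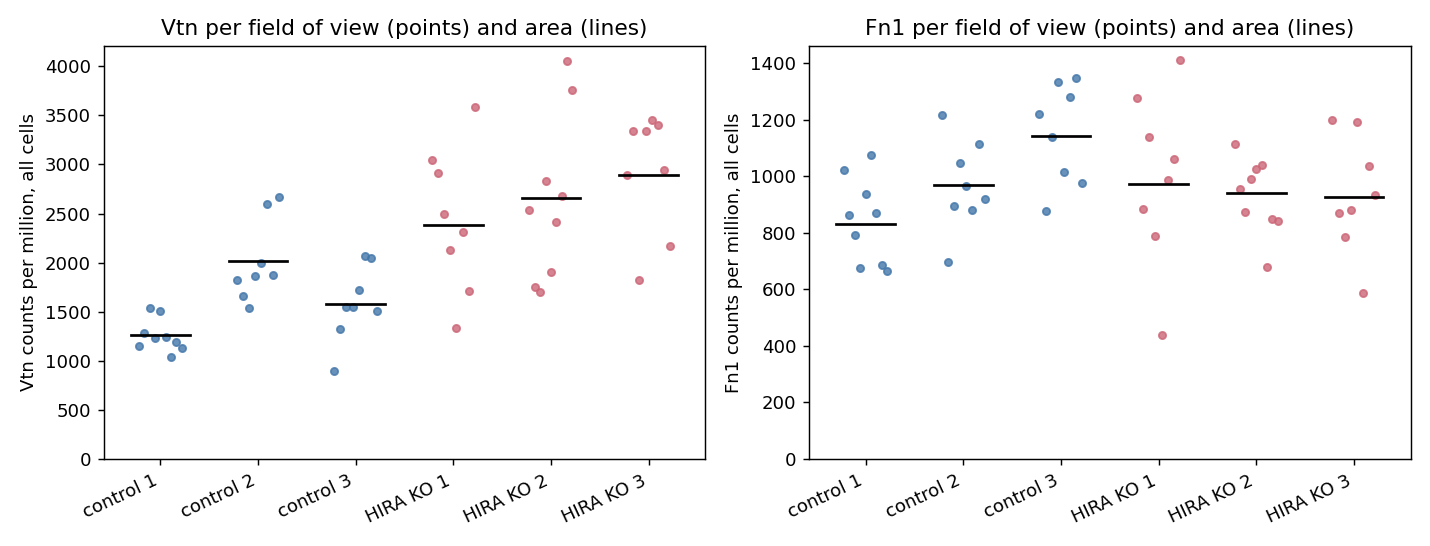
Level (CPM) over all cells for Vtn (left) and Fn1 (right); points are fields of view (8 or 9 per area), black lines the value of each area, blue control and red HIRA KO. The Vtn lines of the HIRA KO areas (2379 to 2888) lie above those of the control areas (1266 to 2021), whereas the Fn1 lines lie between 830.5 and 1140 in both groups.

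In hepatocyte-like cells alone, Vtn was 1835, 2421 and 2158 CPM in control and 3961, 3898 and 4020 CPM in HIRA KO areas. The control areas spread over 293 CPM (SD, n = 3) and the HIRA KO areas over 60.5 CPM (SD, n = 3), and the groups were apart. The log2 difference was 1.02 ± 0.17 (SE), 2.03-fold, with 3 of 998 genes above it; the areas of the groups were apart for 25.1% of genes. Fn1 was 1018, 1109 and 1539 CPM in control and 1449, 1063 and 1166 CPM in HIRA KO areas, fully overlapping, with a log2 difference of 0.13 ± 0.15. The mean negative probe was at 459 ± 50.8 CPM in control and 482 ± 13.3 CPM in HIRA KO hepatocyte-like cells (SD, n = 3). With it taken off, an alternative chosen after seeing the data, the log2 difference was 1.198 for Vtn and 0.11 for Fn1. The fit scales libraries by TMM (a trimmed mean over genes). With that scaling left out, the all-gene median was -0.15 in place of -0.01, Vtn stood at 0.89 and Fn1 at -0.00065.

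The hepatocyte-like class was not made up alike in the 2 groups, which bears on these values. It joined 4 clusters, led by Neat1 and Vegfa (cluster 2), Apoa1 and Arg1 (cluster 4), Ttr and Gc (cluster 6) and Glul (cluster 11), with 3, 8, 8 and 4 hepatocyte markers raised. Cluster 2 held 57.6% to 66.5% of the class in control and 15.003% to 27.4% in HIRA KO areas, and cluster 6 held 1.76% to 2.67% and 14.5% to 48.8%. Ttr and Gc, which lead cluster 6, passed the test between the groups themselves (below), so the sizes are no result. Within cluster 2, Vtn was 1749, 2294 and 1940 CPM in control and 3120, 2900 and 3772 CPM in HIRA KO areas. Within cluster 4 it was 2046, 2828 and 2789 against 4093, 3455 and 3481 CPM. Both clusters kept the groups apart, as they did for 10.9% of genes in cluster 2 and 13.2% in cluster 4. Within the Glul-led cluster 11, values of 1938, 2133 and 2683 CPM in control and 2995, 2305 and 3195 CPM in HIRA KO areas overlapped (9.57% of genes were apart). Cluster 6, with 28 to 71 control cells per area, reached 4408 to 5096 CPM in HIRA KO and 2091 to 3867 CPM in control areas (15.8% of genes apart). Vtn was also fitted within single clusters, an alternative chosen after seeing the data. The log2 difference was 0.75 ± 0.18 (SE) in cluster 2, 0.52 ± 0.20 in cluster 4 and 0.37 ± 0.26 in cluster 11. Their mean was 0.54, against 1.02 for the class as a whole. Cluster 6, with its 28 to 71 control cells per area, was left out of that mean and gave 0.62 ± 0.27. For Fn1 the fits gave 0.06 ± 0.17 in cluster 2, 0.23 ± 0.18 in cluster 4, -0.50 ± 0.29 in cluster 6 and 0.13 ± 0.24 in cluster 11. How much of the Vtn difference of the class is a difference in its make-up was not tested further.

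Outside hepatocyte-like cells, the Vtn levels of the groups were apart in 2 of the other 6 classes and overlapped in the rest. Kupffer-like cells, given above, had a log2 difference of 1.03 ± 0.20 (SE). Endothelial-like cells had 980, 1242 and 1050.0 CPM in control and 1629, 1543 and 1870 CPM in HIRA KO areas, a log2 difference of 0.66 ± 0.18, where the groups were apart for 10.5% of genes. Cholangiocyte-like cells, with 1186, 1592 and 1288 CPM against 1619, 1539 and 1767 CPM, overlapped, as did monocyte/dendritic-like cells, with 573 to 1139 and 885 to 1029 CPM. In stellate-like cells the groups overlapped, with 1022, 1715 and 1204 CPM against 1704, 1308 and 1716 CPM, a log2 difference of 0.33 ± 0.19 (SE), where the groups were apart for 12.9% of genes. Fn1 in stellate-like cells was 1100, 769 and 966 CPM against 1133, 1028 and 947 CPM, a log2 difference of 0.16 ± 0.17. T/NK-like cells, the comparison class, had 883, 1446 and 896 CPM in control and 1138, 1625 and 1530 CPM in HIRA KO areas. The part of signal from neighbouring hepatocytes in these classes was not tested.

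Per unit of cell area the picture depended on the denominator. Per megapixel of hepatocyte-like cell area, Vtn gave 14.5 ± 5.70 counts in control and 37.2 ± 3.84 in HIRA KO areas, and Fn1 gave 7.99 ± 1.81 and 11.4 ± 0.575 (SD, n = 3 each). By this measure Fn1 was also higher in all HIRA KO areas than in all control areas. The share of all genes apart by this measure was not determined, so this is a description only. The density of all gene counts was higher as well: in hepatocyte-like cells it was 6.68 ± 1.79 counts per 1000 square pixels for control areas and 9.39 ± 1.0004 for HIRA KO areas, and over all cells 7.09 ± 1.33 and 10.8 ± 0.473. In hepatocyte-like cells the HIRA KO mean over the control mean was 1.42 for Fn1 and 1.41 for all gene counts, with Vtn at 2.56. The Fn1 density thus rose about as much as that of all genes together. The part of the higher overall signal in the Fn1 density was not tested.

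Detection in single cells was sparse. Before thinning, 20.4% to 32.6% of hepatocyte-like cells in control and 36.97% to 50.2% in HIRA KO areas held a Vtn count, and 12.3% to 18.0% and 17.5% to 20.6% an Fn1 count. Cells were then thinned to 50 counts, leaving out those below (from 1370 to 3068 cells per area remained). At this depth, Vtn was found in 10.3%, 11.3% and 9.82% of hepatocyte-like cells in control areas and in 16.97%, 17.6% and 16.6% in HIRA KO areas. In T/NK-like cells at the same depth it was found in 2% to 9.17% and 4.68% to 8.72%. Fn1 was found in 5.11%, 5.57% and 7.16% of thinned hepatocyte-like cells in control and 6.68%, 4.37% and 5.12% in HIRA KO areas, and in 1.03% to 3.87% of thinned T/NK-like cells. Both transcripts were found together in 4 to 29 cells per area, a share of 0.292% to 1.02%, where unrelated detection would give 0.526% to 1.13%. Area by area, the share was above the unrelated one in areas 2 and 3 of both groups, for example 1.02% against 0.848% in HIRA KO area 3. It was below it in area 1 of both groups, at 0.292% against 0.526% in control and 0.904% against 1.13% in HIRA KO. A joint detection beyond the unrelated share was not tested.

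The 2 transcripts differed in the share that lay in the nucleus. The transcript table places each transcript in the nucleus, the cytoplasm or the membrane zone of the segmented cell. In hepatocyte-like cells pooled over areas, 34.7% of Vtn and 53.0% of Fn1 transcripts were nuclear, where the median of the 748 genes above the highest negative probe was 48.6%. Vtn had a lower share than all but 47 of these genes, and 512 genes had a lower share than Fn1. Control areas gave 409 to 1286 Vtn transcripts each and HIRA KO areas 1328 to 2757. The pooled share and rank of Vtn therefore weigh the HIRA KO areas more. Secreted plasma proteins lay on either side of Vtn, with Gc at 24.3% and Apoa1 at 25.4% below it and Serpina1a, an antitrypsin gene, at 52.3% beside Fn1. Within each area the nuclear share of Vtn minus that of all other genes was -7.26 ± 5.13 percentage points (SD, n = 6), below 0 in 5 of 6 areas. That of Fn1 was 7.20 ± 5.95 points, above 0 in 6 of 6. By group, the Vtn value was -3.39 ± 4.17 points in control and -11.1 ± 1.9 points in HIRA KO areas (SD, n = 3 each). In control areas Vtn thus lay within its spread of the other genes. The Fn1 value was 7.43 ± 5.92 and 6.965 ± 7.30 points. Negative probes were nuclear in 25.8% to 32.2% of their counts, so unspecific signal lowers a nuclear share. With the mean negative probe taken off, an alternative chosen after seeing the data, in the members and in all other genes alike, the difference was -20.3 points for Vtn and 7.75 points for Fn1, which was then below the other genes in HIRA KO area 1 (52.7% against 56.5%).

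The nuclear share of Vtn was lower in HIRA KO areas. It was 49.6%, 47.05% and 48.7% in the control areas and 30.8%, 29.4% and 30.7% in the HIRA KO areas, a mean of 48.5% ± 1.31 against 30.3% ± 0.801 (SD, n = 3 each). The exact 95% binomial interval covers counting error only. It ran from 44.3% to 49.8% in control area 2, the lowest control. In HIRA KO area 1, the highest HIRA KO, it ran from 28.3% to 33.4%. Transcripts of 1 area are no replicates, so these intervals are no test between the groups. Fn1 was nuclear in 57.7%, 58.6% and 61.5% of its transcripts in control and 44.2%, 45.8% and 55.1% in HIRA KO areas. All other genes together were also less nuclear in HIRA KO areas, at 41.4% ± 1.42 against 51.8% ± 3.92 in control areas. The change of Vtn, -18.2 percentage points, was exceeded by 3 of 748 genes, and that of Fn1, -10.9 points, by 95; the median gene changed by -7.41 points. Among the plasma proteins Azgp1 changed by -17.1, Ttr by -11.9, Gc by -7.03 and Apoa1 by -5.38 points.

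Counted per cell, the Vtn difference was larger outside the nucleus than inside it. Hepatocyte-like cells held 0.162 ± 0.0568 nuclear Vtn counts in control and 0.223 ± 0.04995 in HIRA KO areas, and 0.175 ± 0.0708 against 0.513 ± 0.115 counts outside the nucleus (SD, n = 3 each). These are ratios of 1.37 and 2.94. For all other genes together the ratios were 0.945 inside and 1.47 outside the nucleus. For Fn1 the nuclear counts per cell were 0.110 ± 0.0247 and 0.109 ± 0.0285, and those outside the nucleus 0.0754 ± 0.0158 and 0.114 ± 0.00183. The median nucleus covered 20.6% ± 0.996 of the cell area in control and 22.2% ± 1.93 in HIRA KO areas.

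The shift in the nuclear share of Vtn was not seen in every cluster. Within the Neat1-led cluster 2, the share was 60.2%, 57.8% and 56.6% in control and 42.3%, 45.7% and 48.6% in HIRA KO areas. Within the Apoa1-led cluster 4 it was 23.9%, 24.5% and 41.3% in control, on 88, 286 and 92 transcripts, and 30.96%, 33.3% and 30.7% in HIRA KO areas, which overlapped. Within the Glul-led cluster 11 it was 42.2%, 40.8% and 30.5% against 22.9%, 25.9% and 24.6%, on 45 to 211 transcripts. Within the Ttr-led cluster 6 it was 33.3%, 21.1% and 13.6% in control, on only 12, 57 and 22 transcripts. In HIRA KO areas that cluster had 21.4%, 24.2% and 27.1%, on 336, 1569 and 1693 transcripts, so the groups overlapped. How much of the class shift is a difference in the make-up of the class was not tested. Outside hepatocyte-like cells, Kupffer-like cells had 40% to 50.8% of Vtn in the nucleus in control and 26.1% to 29.3% in HIRA KO areas. Endothelial-like cells were also apart, at 44.94% to 53.39% and 27.27% to 40.12%. Stellate-like cells overlapped, at 39.6% to 42.5% and 33.6% to 44.3%. All other genes together were also less nuclear in HIRA KO Kupffer-like cells, at 43.99% to 48.74% against 50.38% to 54.8% in control areas. In endothelial-like cells those genes overlapped, at 51.2% to 55.82% against 55.32% to 59.17%. The share of genes apart by this measure was not determined for these classes or for single clusters, so this is a description only. Of all Vtn counts, 6.06% to 7.84% in control and 7.35% to 11.4% in HIRA KO areas fell outside any segmented cell, against 4.07% to 8.52% of Fn1 counts over the 6 areas.

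**Figure D3:**
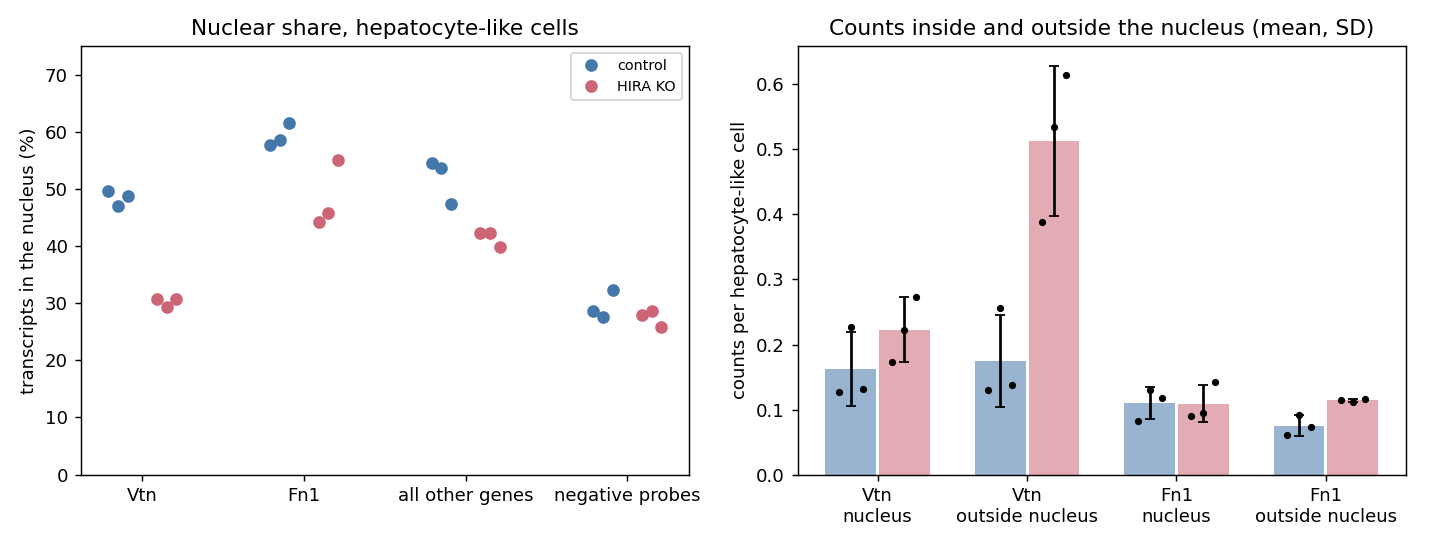
Left, percentage of transcripts placed in the nucleus of hepatocyte-like cells for Vtn, Fn1, all other genes and the negative probes; each point is 1 area (blue control, red HIRA KO). Right, counts per hepatocyte-like cell inside and outside the nucleus (bars mean, error bars SD, n = 3 areas); Vtn outside the nucleus is at 0.175 in control and 0.513 in HIRA KO areas.

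The receptors and partners of the 2 glycoproteins were then compared between genotypes, gene by gene. Of 63 genes from 6 lists on the panel (Fgg stands in both the glycoprotein and the plasma protein list), 2 passed the test in hepatocyte-like cells, 3 in stellate-like cells and 1 over all cells (edgeR quasi-likelihood test, adjusted p under 0.05 over 998 genes). Of all genes, 1.2% passed in hepatocyte-like cells, 0.401% in stellate-like cells and 0.2% over all cells. Above the highest negative probe lay 7 of 9 receptor integrins, 7 of 9 other integrins and 5 of 10 co-receptors and proteolysis partners. So did 4 of 9 other glycoproteins, 12 of 17 collagens and 10 of 10 plasma proteins. A gene at or below that level that did not pass cannot be read as present and unchanged.

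None of the 9 RGD-binding and related receptor integrins and none of the 9 other integrins passed in any of the 3 sets (edgeR). Itgav, the alpha subunit of the classical vitronectin receptors, was at 367.7 ± 34.035 CPM in control and 389 ± 49.6 CPM in HIRA KO hepatocyte-like cells (SD, n = 3), a log2 difference of 0.21 ± 0.14 (SE; edgeR adjusted p = 0.568). The mean negative probe stood at 459 CPM in control and 482 CPM in HIRA KO hepatocyte-like cells, so Itgav lay below it in both groups. Itgb5, which pairs with Itgav, had 881 ± 28.3 and 919 ± 84.9 CPM, a log2 difference of 0.20 ± 0.12 (edgeR adjusted p = 0.492). In stellate-like cells Itgb5 differed by 0.40 ± 0.18 (edgeR adjusted p = 0.621). In the same cells, Itga8, a stellate cell integrin subunit that binds fibronectin, gave 1385, 1459 and 1302 CPM in control and 1678, 2461 and 1480 CPM in HIRA KO areas. Its log2 difference was 0.51 ± 0.19 (edgeR adjusted p = 0.450). Of the other integrins, Itga1, a collagen-binding subunit, and Itgae, the subunit that binds E-cadherin on lymphocytes, had the lowest p in hepatocyte-like cells, with log2 differences of 0.16 ± 0.12 and -0.15 ± 0.12 (edgeR adjusted p = 0.668 and 0.716). The median log2 difference of the receptor integrins was 0.01 in hepatocyte-like and 0.10 in stellate-like cells, with all genes at -0.01 in both.

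Among the 9 tested of 10 co-receptors and proteolysis partners none passed. Tgfb2, a latent growth factor ligand, had the lowest p of the list in hepatocyte-like cells. It was at 589 ± 32.6 CPM in control and 435 ± 60.7 CPM in HIRA KO areas (SD, n = 3). Its log2 difference was -0.29 ± 0.13 (SE, edgeR adjusted p = 0.387). Mmp9, a gelatinase, followed with 0.27 ± 0.13 (edgeR adjusted p = 0.416). The mean negative probe stood at 459 CPM in control and 482 CPM in HIRA KO hepatocyte-like cells, so Tgfb2 lay below it in HIRA KO areas. In stellate-like cells Tgfb2 gave 0.44 ± 0.20 (edgeR adjusted p = 0.621) and Mmp2, another gelatinase, 0.35 ± 0.18 (edgeR adjusted p = 0.681). None of the 9 other adhesive and matrix glycoproteins passed either. Fgg, the gamma chain of fibrinogen and another plasma ligand of integrins, was at 3681 ± 425 CPM in control and 5285 ± 1059 CPM in HIRA KO hepatocyte-like cells, a log2 difference of 0.65 ± 0.19 (edgeR adjusted p = 0.132). Lama4, a laminin chain of vessel basement membranes, gave -0.20 ± 0.14 there (edgeR adjusted p = 0.591). Thbs1, the gene of thrombospondin 1, was at 593 ± 192 and 752 ± 145 CPM in stellate-like cells (edgeR adjusted p = 0.621).

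Collagens passed in stellate-like cells, where 3 of 17 were higher and 0 lower in HIRA KO areas. Col1a1, a chain of fibrillar collagen I, stood at 1242, 887 and 1161 CPM in control and 3114, 3383 and 2589 CPM in HIRA KO areas, all apart, with a log2 difference of 1.496 ± 0.20 (SE; edgeR adjusted p = 2.2e-05). Col3a1, the chain of fibrillar collagen III, rose by 1.197 ± 0.21 (edgeR adjusted p = 0.00134) and Col6a3, a chain of beaded-filament collagen VI, by 0.94 ± 0.19 (edgeR adjusted p = 0.00759). In the same cells Fn1, another early matrix component, differed by the 0.16 ± 0.17 given above. The list's median was 0.30. Col1a1 and Col3a1 are among the 10 leading genes of the stellate-like cluster, so their difference within the class is not independent of how the class was cut. In hepatocyte-like cells none of the 17 passed, with Col3a1 at 0.46 ± 0.15 (edgeR adjusted p = 0.177) and Col4a1, of basement membranes, at 0.27 ± 0.11 (edgeR adjusted p = 0.303). Over all cells only Col1a1 passed (log2 difference 0.74 ± 0.12, edgeR adjusted p = 0.0272), Col3a1 gave 0.77 ± 0.17 (edgeR adjusted p = 0.208), and 0 list genes passed there when control area 2 was left out, as when HIRA KO area 1 or 2 was.

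The hepatocyte plasma proteins had the highest median of the 6 lists in hepatocyte-like cells, 0.36. There 10 of 10 had a positive log2 difference (475 of all 998 genes had one), and 2 passed. Without TMM scaling 8 of 10 were positive (188 of all 998 genes), Serpina1a and Crp having lower mean CPM in HIRA KO areas. In stellate-like cells the list's median was 0.16, under that of the collagens. Ttr, the carrier of thyroid hormone and retinol binding protein, was at 29286 ± 3694 CPM in control and 69812 ± 15387 CPM in HIRA KO areas (SD, n = 3; log2 difference 1.39 ± 0.33 SE, edgeR adjusted p = 0.049). Gc, the vitamin D binding protein, was at 6745 ± 594 and 12951 ± 1004 CPM (1.08 ± 0.22, edgeR adjusted p = 0.0219). Both genes lead hepatocyte-like clusters, so their difference within the class is not independent of how the class was cut; over all cells, where no class was cut, Gc gave 0.91 ± 0.28 (edgeR adjusted p = 0.571) and no plasma protein passed. Without HIRA KO area 2, without HIRA KO area 3 or without control area 2, 0 of the list genes passed in hepatocyte-like cells, and without control area 1 or control area 3, 1 passed.

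**Figure D4:**
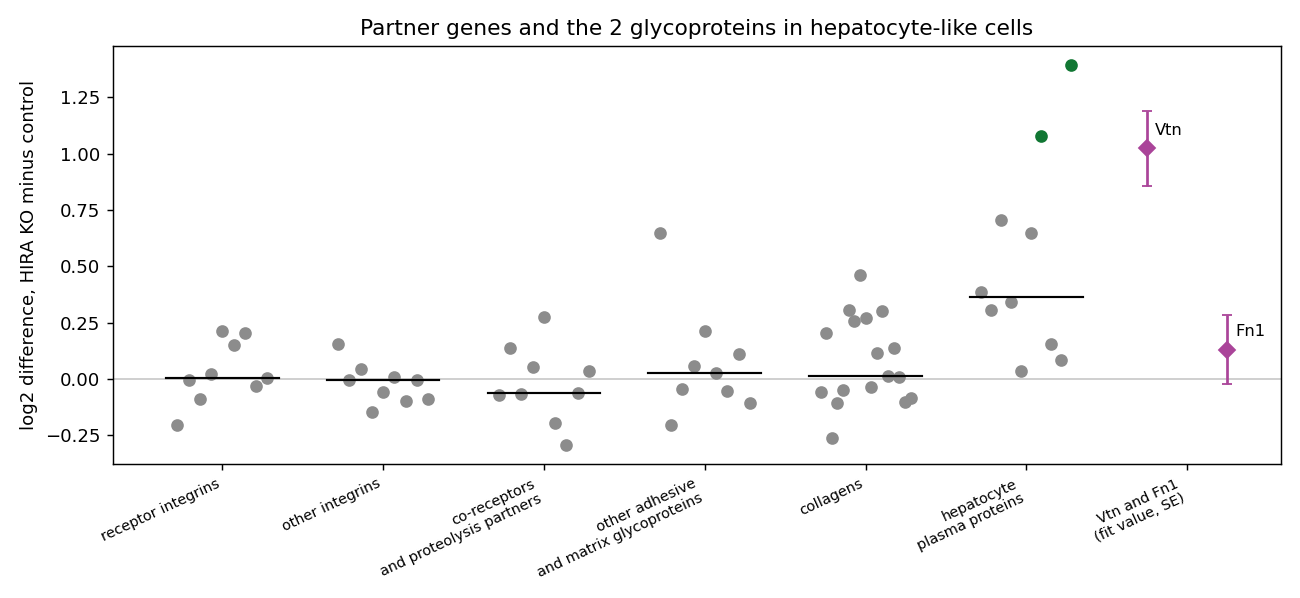
Log2 difference between HIRA KO and control areas in hepatocyte-like cells for the genes of 6 lists (points; green passed the edgeR test at adjusted p under 0.05, black line the list's median) and for Vtn and Fn1 (diamonds with SE). Vtn at 1.02 lies among the highest plasma proteins and Fn1 at 0.13 lies among the integrins and collagens.

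Position in the lobule was the comparison that the choice of the genes had not used. Hepatocytes around the central vein express Glul, the gene of glutamine synthetase, and cholangiocytes mark the portal tract. Hepatocyte-like cells of each area were divided into 3 equal parts by distance to the nearest group of Glul-high cells or to the nearest cholangiocyte-like cell, and the nearest and farthest parts were compared with the area as a block (edgeR). Near Glul-high cells Vtn stood at 1877, 2827 and 2689 CPM in control and 4241, 3466 and 3917 CPM in HIRA KO areas, and far from them at 1711, 2011 and 1979 and at 3627, 4005 and 3946 CPM. Near was above far in 3 of 3 control areas and in 1 of 3 HIRA KO areas. The log2 difference over all areas was 0.22 ± 0.13 (SE; edgeR adjusted p = 0.742), and 0.2% of genes passed, namely Glul, by construction, and Atp5e, a subunit of the mitochondrial ATP synthase. It was 0.49 ± 0.17 in control (edgeR adjusted p = 0.122) and -0.0049 ± 0.15 in HIRA KO areas (edgeR adjusted p = 0.994), and the difference between the genotypes was -0.49 ± 0.22 (edgeR adjusted p = 0.536, p = 0.0292 before adjustment), where 0.2% of genes passed (Gpx1, a glutathione peroxidase, and Arg1, a urea cycle enzyme). Fn1 differed by 0.04 ± 0.09 (edgeR adjusted p = 0.922).

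The Glul-high cells were few, 24 to 121 per area, and only 2 to 6 of the 8 or 9 fields of an area held any. The farthest part therefore lay mostly in fields with no Glul-high cell, and a central vein outside the imaged fields would not be seen. With distances measured within a field only, an alternative chosen after seeing the data, the log2 difference of Vtn was -0.05 and that of Fn1 -0.16, and the difference between the genotypes for Vtn was -0.10 (edgeR adjusted p = 0.981) in place of -0.49. Over its alternatives that genotype difference ran from -0.70 to -0.10, with adjusted p from 0.136 to 0.981.

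Cholangiocyte-like cells, 148 to 875 per area, were present in every field. Vtn near them was at 1839, 2531 and 2471 CPM in control and 4019, 4167 and 4308 CPM in HIRA KO areas, and far from them at 1880, 2393 and 2045 and at 4064, 3579 and 3864 CPM. Near was above far in 4 of 6 areas, by a log2 difference of 0.12 ± 0.07 (SE; edgeR adjusted p = 0.634), and Fn1 differed by 0.11 ± 0.07 (edgeR adjusted p = 0.732). Neither passed, where 0.701% of genes did. In the same fit Glul fell towards the cholangiocyte-like cells by 0.71 ± 0.11 on the log2 scale (edgeR adjusted p = 0.00024) and Spp1, a cholangiocyte gene, rose by 0.68 ± 0.12 (edgeR adjusted p = 0.000801). Spp1 leads the cholangiocyte-like cluster, so its rise is not independent of how the reference cells were named. The part of signal from those neighbours was not tested. The difference between genotypes was -0.03 ± 0.14 for Vtn and -0.05 ± 0.15 for Fn1; 0% of genes passed there (edgeR; 43 genes had p under 0.05 before adjustment, and DESeq2 called 0).

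**Figure D5:**
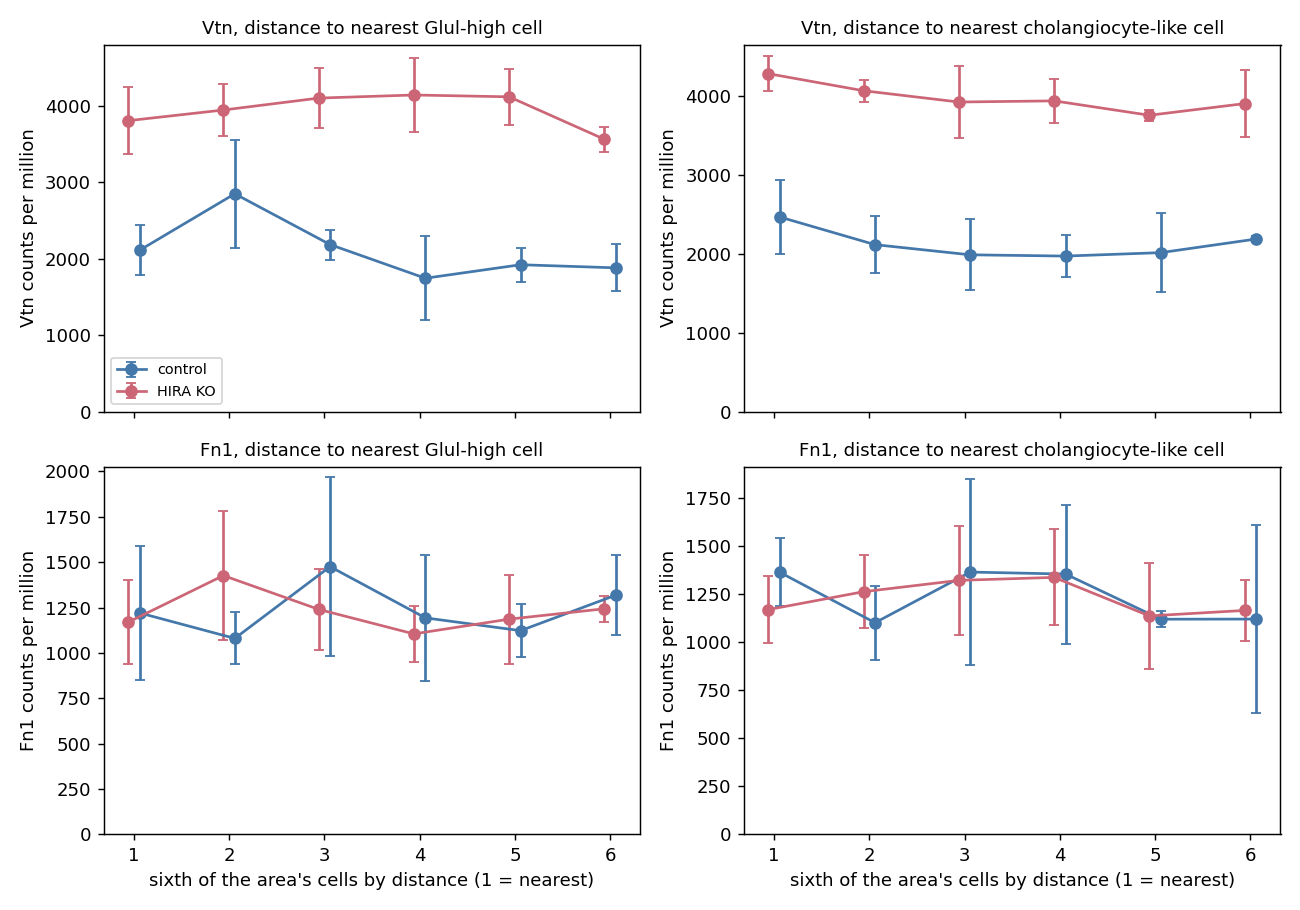
Level (CPM) of Vtn (top) and Fn1 (bottom) in hepatocyte-like cells, in sixths of each area's cells by distance to the nearest Glul-high cell (left) or cholangiocyte-like cell (right); points are means and error bars SD over 3 areas (blue control, red HIRA KO). The Vtn lines of the 2 genotypes run apart over the whole distance, and neither gene passed the test of near against far.

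Over 42 sums (7 classes in 6 areas), the genes whose log2 level was most like that of Vtn were Ttr (Pearson r = 0.898), Gc (0.890), Fgg (0.853), Glud1 (0.851) and Azgp1 (0.791). Those most like Fn1 were G0s2 (0.779), Zbtb16 (0.716), Fgg (0.695), Vegfa (0.691) and H2-Q10 (0.686). Vtn and Fn1 themselves correlated at 0.537, the 30th gene for Vtn and the 38th for Fn1. The sums of an area share its section and depth, and hepatocyte-like cells lie apart from the rest, so these values are a description.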

How the data were processed

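The authors deposited raw counts per segmented cell for 1000 mouse gene targets and 10 negative probes, decoded and segmented with the CosMx Spatial Molecular Imager platform on 5 µm sections of fixed, paraffin-embedded liver; the tables of cell areas, positions in pixels and the compartment of each transcript were used as deposited. No column was left out as belonging to other samples, and the cell outlines were not used here. Cells with fewer than 20 counts (2215) or larger than 5 geometric mean areas (252) were removed, as in the study's methods. The median cell held 88 to 147 counts per area, so most cells held no count of either gene, and counts were summed per area. Fields of view were assigned to groups by their labels, and by position 50 of 50 fell in with the other fields of their area.

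The remaining cells were clustered on 996 genes, without Vtn and Fn1 (Pearson residuals, 30 components, Leiden resolution 1.6, leidenalg 0.10.2), and clusters were named from listed markers. No doublet caller was run. Sums per area were compared with edgeR 4.0.16 (quasi-likelihood, TMM, Benjamini-Hochberg over 998 genes, threshold 0.05); DESeq2 1.42.0 was an alternative. Scripts were tested on simulated data. The members and lists were chosen with earlier results of these data known. Named were both members, list genes past the threshold, those with the lowest p per list, the 5 genes most alike each member over classes of at least 100 cells per area (log2 of CPM + 10), and the leading genes of the distance fits. Glul-high cells were those above the 95th percentile of Glul with at least 3 such cells among their 20 nearest. The Vtn and Fn1 coding sequences were read from the GRCm38 genome with GENCODE vM21.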

Additional observations from a re-analysis of the deposited data

How the results depend on the processing

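Of 210 alternatives to 18 results, 176 were counted as unchanged. These kept the direction and the side of the threshold, or stayed within the replicate spread. For the number of list genes called, a number near the main one was enough, such as 2 or 4 against 3 in stellate-like cells. Alternatives chosen after seeing the data were taking off the mean negative probe, distances within a field and differences within clusters. The Vtn difference in hepatocyte-like cells (1.02) was 0.54 within clusters 2, 4 and 11 and 1.198 with the mean negative probe taken off, and the Vtn nuclear share minus that of other genes (-7.26 points) was -20.3 points with it taken off on both sides. List genes called over all cells (1) were 0 without TMM, 3 with the slide row as a block, 4 with DESeq2 and 0 to 1 with an area left out; in hepatocyte-like cells (2) they were 5 with the block, 4 with DESeq2 and 0 to 2 with an area left out; in stellate-like cells (3) they were 5 without TMM, 7 with the block and 5 with DESeq2. Near against far from Glul-high cells, Vtn (0.22) became -0.0485 within fields. Fn1 (0.04) became -0.0104 without TMM, -0.0668 in cells with at least 50 counts, -0.0234 at Leiden resolution 1.0, -0.163 within fields and ranged from -0.0369 to 0.0892 with an area left out. The genotype difference of that value for Fn1 (0.04) became -0.0558 with 2 equal parts by distance, -0.18 in cells with at least 50 counts, -0.10 at resolution 1.0 and ranged from -0.10 to 0.18 with an area left out. For cholangiocyte-like cells it was 0.0165 without TMM and -0.0861 to 0.0533 with an area left out for Vtn (-0.03), and -0.184 to 0.0161 for Fn1 (-0.05). None of these distance values passed where an adjusted p was given (DESeq2 gave none for Fn1 and Glul-high cells), and the cause of the changes was not tested. No paired analysis was possible because the groups share no replicate numbers; the slide row, which holds 1 area of each group, was used as a block instead. Fn1 stood 1.70 times above the highest negative probe over all cells, which limits its values in classes near the background.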
